A study of Mus musculus with 7 samples.

Results

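Chemokines and chemokine receptors were followed across sorted mouse mammary cells. Members were genes with a numbered symbol for a CXC, CC, CX3C or XC chemokine, a CXC, CC or CX3C receptor, or an atypical receptor. Symbols that end in a letter, such as Ccl27a and Ccl21b, and the receptor Xcr1 fell outside this rule. The rule found 48 of the 17096 genes represented in the table, 32 ligands and 16 receptors. RNA of sorted cells was read on 7 Affymetrix mouse arrays. Embryonic cells (3 arrays, of 2000, 2000 and 813 cells) were sorted at embryonic day 14 from Lgr5-IRES-GFP female embryos for high CD49f, the integrin alpha 6 protein, and high Lgr5 reporter, with the females of 1 litter pooled for each array. Adult luminal cells (2 arrays) were YFP+ cells of K8CREERT2/RosaYFP mice, and adult basal cells (2 arrays) were YFP+ cells of K5CREERT2/RosaYFP mice, both taken 8 weeks after tamoxifen. In the adult groups a Cre recombinase driven by a keratin promoter and switched on by tamoxifen turns on YFP, so each group holds the cells that promoter labelled and their descendants. The sources used here give no age for the adult mice. The labels mark the adult arrays as reanalysed and do not say whether the 2 of a group came from different mice, so their p-values cover array-to-array spread, which may be technical.

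Chemokines are small secreted proteins that guide the movement of cells, above all leukocytes, by binding G protein-coupled receptors. They are named by the spacing of their first cysteines (CC, CXC, CX3C, XC). Atypical chemokine receptors bind chemokines without the usual G protein signal and mostly remove them from the surroundings. In the mammary gland, chemokines made by epithelium and stroma are known to recruit macrophages and eosinophils during ductal growth, and Ccl28 brings antibody-secreting cells into the lactating gland.

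Adult luminal and basal cells differed in 5 members. Cxcl14, a chemokine of epithelia, Cxcl12, the ligand of the receptors Cxcr4 and Ackr3, and the atypical receptors Ackr4 and Ackr3 were lower in luminal cells, and Cxcl17, a chemokine of mucosal epithelia, was higher. Cxcl14 was 12.6-fold lower, while the luminal mean of Cxcl12 lay below background and Ackr3 lay below background on all adult arrays. Calls required an adjusted p under 0.05 in limma (Benjamini-Hochberg over all 17096 genes) and at least a 2-fold difference. By that rule 10.4% of the members changed, 4 lower and 1 higher in luminal cells, beside 5.49% of all genes (2.63% of all genes lower and 2.87% higher). Without luminal replicate 1, luminal replicate 2, basal replicate 1 or basal replicate 2, each in turn, 1 member passed, Cxcl14. The median luminal minus basal difference of the 48 members was -0.11 on the log2 scale, beside 0.02 for all genes, and 37 members differed by under 0.5. Both luminal arrays lay on 1 side of both basal arrays in 24 of the 48 members and in 59.2% of all genes.

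Upstream sequence is shown for 2 of the genes that were lower in luminal cells, Cxcl12 and Ackr4, and for a run of neighbouring genes, Cxcl15, Cxcl1 and Cxcl2, in which Cxcl15 had a difference over 2-fold that did not pass the test. All are the 250 bases before the annotated start in RefSeq's GRCm38.p6 table, 5′ to 3′ on the gene's strand. Cxcl12 lies on the plus strand (chr6:117168285-117168534), Ackr4 on the minus strand (chr9:104126644-104126893), and Cxcl15 (chr5:90794284-90794533), Cxcl1 (chr5:90890995-90891244) and Cxcl2 (chr5:90903649-90903898) on the plus strand. Capitals mark matches, on either strand, to a TATA box (TATAAA), a GC box (GGGCGG) or the NF-kB consensus. A CCAAT box (CCAAT) was searched too and is in none of the 5.
Cxcl12: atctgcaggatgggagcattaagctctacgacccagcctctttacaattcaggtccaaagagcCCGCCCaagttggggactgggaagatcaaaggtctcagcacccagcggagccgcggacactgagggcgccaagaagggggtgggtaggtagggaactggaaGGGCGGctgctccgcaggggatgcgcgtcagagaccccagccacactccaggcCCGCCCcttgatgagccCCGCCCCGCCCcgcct
Ackr4: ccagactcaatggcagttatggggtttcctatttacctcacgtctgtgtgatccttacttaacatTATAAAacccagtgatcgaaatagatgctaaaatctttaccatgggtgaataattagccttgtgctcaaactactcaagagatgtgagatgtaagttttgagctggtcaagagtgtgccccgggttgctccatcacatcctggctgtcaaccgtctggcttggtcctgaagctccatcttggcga
Cxcl15: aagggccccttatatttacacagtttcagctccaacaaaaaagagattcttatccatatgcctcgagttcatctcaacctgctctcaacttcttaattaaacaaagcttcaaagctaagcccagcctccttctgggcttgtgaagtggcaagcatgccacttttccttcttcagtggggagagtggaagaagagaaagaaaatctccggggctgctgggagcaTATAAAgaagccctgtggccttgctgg
Cxcl1: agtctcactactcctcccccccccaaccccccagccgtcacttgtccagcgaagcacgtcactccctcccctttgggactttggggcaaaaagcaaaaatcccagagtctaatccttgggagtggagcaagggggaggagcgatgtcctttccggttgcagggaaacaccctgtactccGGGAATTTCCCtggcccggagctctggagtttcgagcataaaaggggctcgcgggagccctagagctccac
Cxcl2: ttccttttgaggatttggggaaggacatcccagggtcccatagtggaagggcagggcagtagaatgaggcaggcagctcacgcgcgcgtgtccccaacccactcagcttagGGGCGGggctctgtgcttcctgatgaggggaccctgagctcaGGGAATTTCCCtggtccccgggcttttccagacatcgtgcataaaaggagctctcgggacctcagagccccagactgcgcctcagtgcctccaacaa
The Cxcl12 window held 5 GC boxes, of which the 2 nearest the start overlapped, and no TATA box or NF-kB match. The windows of Cxcl1 and Cxcl2 each held a pair of overlapping NF-kB matches, one on each strand, which the Cxcl15 window lacked. The Cxcl15 window held a TATA box that began 27 bases before the start. Among all 32851 windows of this length in the table, 12.4% held a TATA box, 33.8% a CCAAT box, 32.7% a GC box and 7.25% an NF-kB match. Of the 38 windows of members, for 36 genes, 10 held a TATA box, 12 a CCAAT box, 5 a GC box and 10 an NF-kB match. These matches are descriptions of the letters in the window. The Cxcl14 window lay inside the gene as the gene table gives it and is not printed. Cxcl17, Ccl2, Ccl5 and Cxcl16 were not among the windows.

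Cell identity was checked with lists of lineage markers. Of 9 basal markers (among them Krt5, Krt14, Trp63 and Myh11), 8 were lower in luminal cells, with a median difference of -2.77. Of 12 luminal markers (among them Foxa1, Elf5, Pgr and Cldn3), 8 were higher in luminal cells, with a median of 1.40. Krt8, whose promoter drove the luminal label, stood at 11.04 in luminal and 10.64 in basal cells and did not pass (limma adjusted p = 0.121). A level counted as above background at a log2 intensity over 5.72, a line below which 95% of the probe sets for organ-restricted genes fell. Array medians ran from 5.05 to 5.08, and 48.2% to 50.1% of genes lay above background per array. With so few arrays, the precision of each difference is limited by their number.

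Of the 48 members, 15 lay above background in at least 1 adult group, 14 of the 32 ligands and 1 of the 16 receptors. That is 31.2% of members, beside 52.9% of all genes. Luminal cells had 11 members above background and basal cells 14. The other 33 members had both adult means below background, and apart from Ackr3 their differences ran from -0.78 (Cxcl9) to 0.38 (Ccl20). At such levels a small difference does not show unchanged expression. Cxcl3, Ccl26, Cxcr1, Cxcr4, Ccr7 and Ackr1 are not analysed here.

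**Figure D1:**
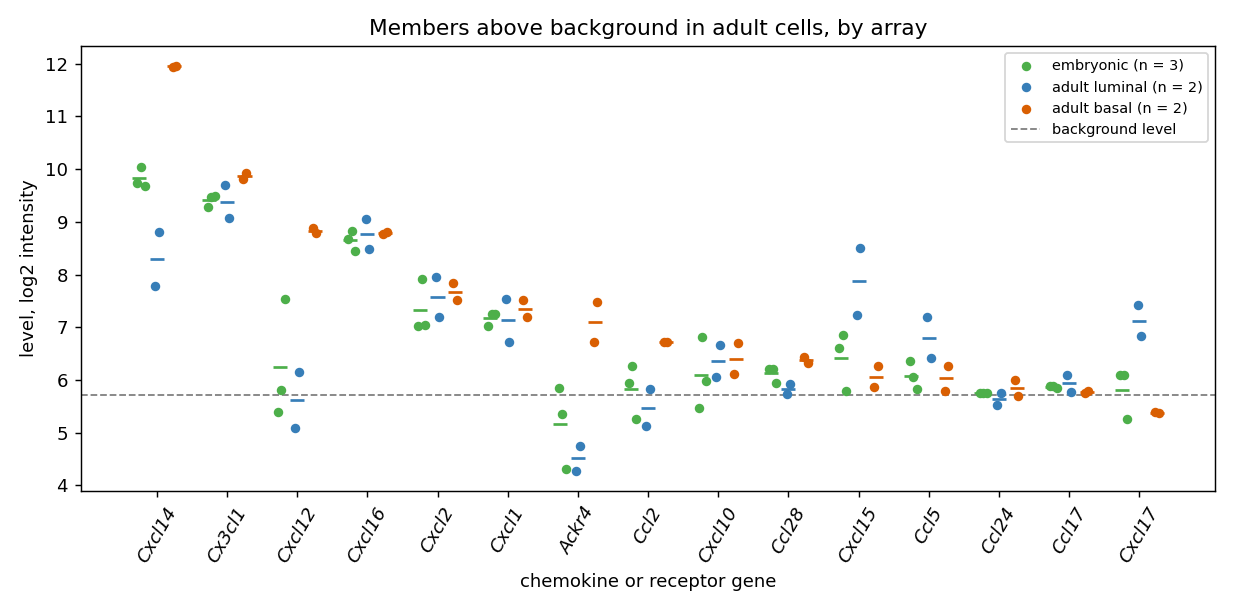
Log2 intensity of the 15 members above background in an adult group, by array: points are arrays, short lines group means, and the dashed line the background level of 5.72. Cxcl14 lies at 7.78 and 8.81 in luminal and at 11.94 and 11.95 in basal arrays, while for Cxcl16 the groups overlap. Levels are not compared between genes.

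The CXC ligands held the members with the most distant groups. Cxcl14 had log2 levels of 7.78 and 8.81 in luminal cells, against 11.94 and 11.95 in basal cells. Both basal arrays lay over 3 log2 units above the higher luminal array. The difference was -3.65 ± 0.32 (SE, n = 2 and 2 arrays, limma adjusted p = 0.00577), a 12.6-fold lower level in luminal cells. A second probe set of the gene gave -3.83. Cxcl14 was the one member that passed whichever adult array was left out, with a difference from -4.17 to -3.14 and an adjusted p of at most 0.0470.

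Cxcl12, also called stromal cell-derived factor 1, stood at 5.08 and 6.16 in luminal cells and at 8.88 and 8.78 in basal cells. The groups were far apart, and of the luminal arrays the first, like the luminal mean of 5.62, lay below background. The difference was -3.21 ± 0.71 (limma adjusted p = 0.0379), and its size is not exact, since 1 of the 2 luminal arrays was measured above background. The other 2 probe sets of Cxcl12 gave -2.59 and -2.03. Cxcl12 no longer passed without luminal replicate 1 (adjusted p = 0.208), luminal replicate 2 (0.116), basal replicate 1 (0.163), basal replicate 2 (0.127) or embryonic replicate 2 (0.0540), the last of which enters only through the pooled spread.

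Markers of fibroblasts and endothelium, cells that are known to express Cxcl12, mostly had negative luminal minus basal differences. Of 16 fibroblast markers 5 were lower in luminal cells (2.63% of all genes) and none higher (2.87%). Their median was -1.07, and 12 were above background in each adult group. Their summed intensity was 3591 and 5825 in luminal arrays and 9694 and 11886 in basal arrays. Postn, a matrix protein gene, had -2.39 ± 0.16 (limma adjusted p = 0.00367), and Col1a1, the main fibrillar collagen gene, had -1.38 ± 0.56 and did not pass. Col1a2 and Pdgfra, a receptor that marks fibroblasts, lay below background in both adult groups.

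Of 13 endothelial markers none changed (5.49% of all genes), and all 13 had negative differences, with a median of -1.27 (0.02 for all genes). In luminal cells 6 lay above background, and in basal cells 10. Their summed intensity was 525 and 887 in luminal arrays and 1253 and 2047 in basal arrays. Pecam1 and Cdh5, both on the endothelial list, stood at 6.69 and 6.59 in luminal and at 8.32 and 8.17 in basal cells. Between the luminal arrays, replicate 2 was higher in Cxcl12 by 1.07, in Cxcl14 by 1.03, in the fibroblast list by a median of 0.54, in the endothelial list by 0.64 and in the basal list by 0.25. For the basal arrays, replicate 2 minus 1 was -0.09 in Cxcl12 and 0.01 in Cxcl14. Its medians there were 0.37 in the fibroblast, 0.74 in the endothelial and 0.12 in the basal list. The part of these cells in the Cxcl12 and Cxcl14 differences was not tested. In such bulk samples, fewer cells of a type and less RNA per cell cannot be told apart.

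**Figure D2:**
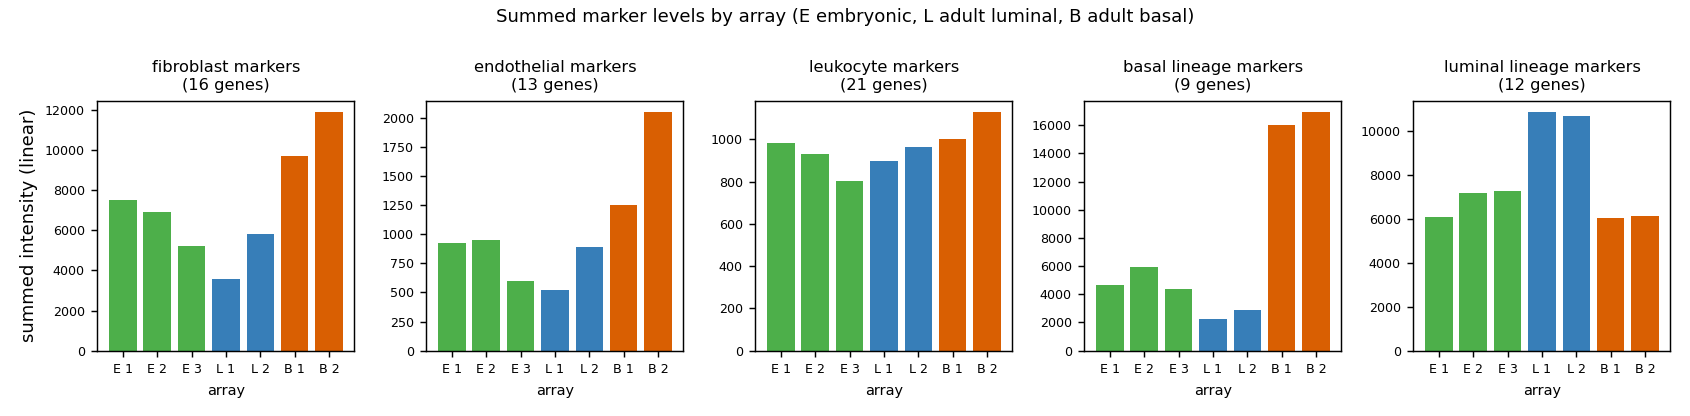
Summed linear intensity of 5 marker lists in each array, with 3 embryonic (E), 2 adult luminal (L) and 2 adult basal (B) arrays. Fibroblast and endothelial sums are lower in both luminal arrays (3591 and 5825; 525 and 887) than in both basal arrays (9694 and 11886; 1253 and 2047).

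Cxcl17 stood at 7.42 and 6.83 in luminal cells, against 5.39 and 5.37 in basal cells. Both luminal arrays were above background and both basal arrays below it. The fit called Cxcl17 higher in luminal cells (limma adjusted p = 0.0256). Its luminal mean of 7.12 lay 2.65-fold above the background level, used here in place of the dim basal mean of 5.38. That fold leaves out the spread between arrays. Cxcl17 had a 95% interval of 0.96 to 2.53 for luminal minus basal on the log2 scale. It did not pass without luminal replicate 1 (0.154), luminal replicate 2 (0.0863), basal replicate 1 (0.125) or basal replicate 2 (0.0989).

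Cxcl15, which attracts neutrophils and is also known as lungkine, had levels of 7.24 and 8.50 in luminal cells and 5.87 and 6.26 in basal cells. The groups did not overlap, but the luminal arrays lay 1.26 apart. It came to 1.81 ± 0.49 for luminal minus basal, short of the threshold (limma adjusted p = 0.0618), and a second probe set gave 2.03. With the 4 adult arrays alone it passed (adjusted p = 0.0361).

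Cxcl1 and Cxcl2, which follow Cxcl15 on the chromosome, did not pass. Cxcl1, the gene next to it, had 7.54 and 6.73 in luminal cells and 7.51 and 7.19 in basal cells. Cxcl2, which follows Cxcl1, had 7.94 and 7.19 in luminal cells and 7.83 and 7.51 in basal cells. Both encode neutrophil attractants that NF-kB signalling induces, both were above background on all adult arrays, and in both the groups overlapped. Their differences were -0.22 (95% interval -0.87 to 0.43) for Cxcl1 and -0.11 (-1.02 to 0.80) for Cxcl2. Cxcl5, a further neutrophil attractant, was below background in both groups, at 3.68 and 3.38.

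The membrane-bound chemokines Cxcl16 and Cx3cl1, which are shed by the proteases Adam10 and Adam17, were above background on every array. Cxcl16 had 9.06 and 8.49 in luminal and 8.76 and 8.81 in basal cells, with a difference of -0.01 (95% interval -0.52 to 0.49). Cx3cl1 had 9.70 and 9.07 in luminal and 9.80 and 9.93 in basal cells, with a difference of -0.48 (-0.98 to 0.02). Neither passed, and a second probe set of each gave 0.10 and -0.34. Adam10 (1.34 ± 0.44, limma adjusted p = 0.0963) and Adam17 (0.49 ± 0.26, adjusted p = 0.261) did not pass. Adam10 had 10.15 and 10.01 in luminal and 8.72 and 8.76 in basal cells, and the groups did not overlap. Its embryonic columns, which held 8.63, 8.52 and 9.91, enter the SE through the pooled spread.

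Of the interferon-induced CXC ligands, which attract T cells, Cxcl10 was above background. It had 6.05 and 6.66 in luminal and 6.11 and 6.70 in basal cells, and its difference was -0.05 (95% interval -1.15 to 1.05). In each lineage the second array was the higher one by about as much, 0.61 in luminal and 0.59 in basal cells. Cxcl9 and Cxcl11 were below background in both groups, as was the B cell attractant Cxcl13.

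**Figure D3:**
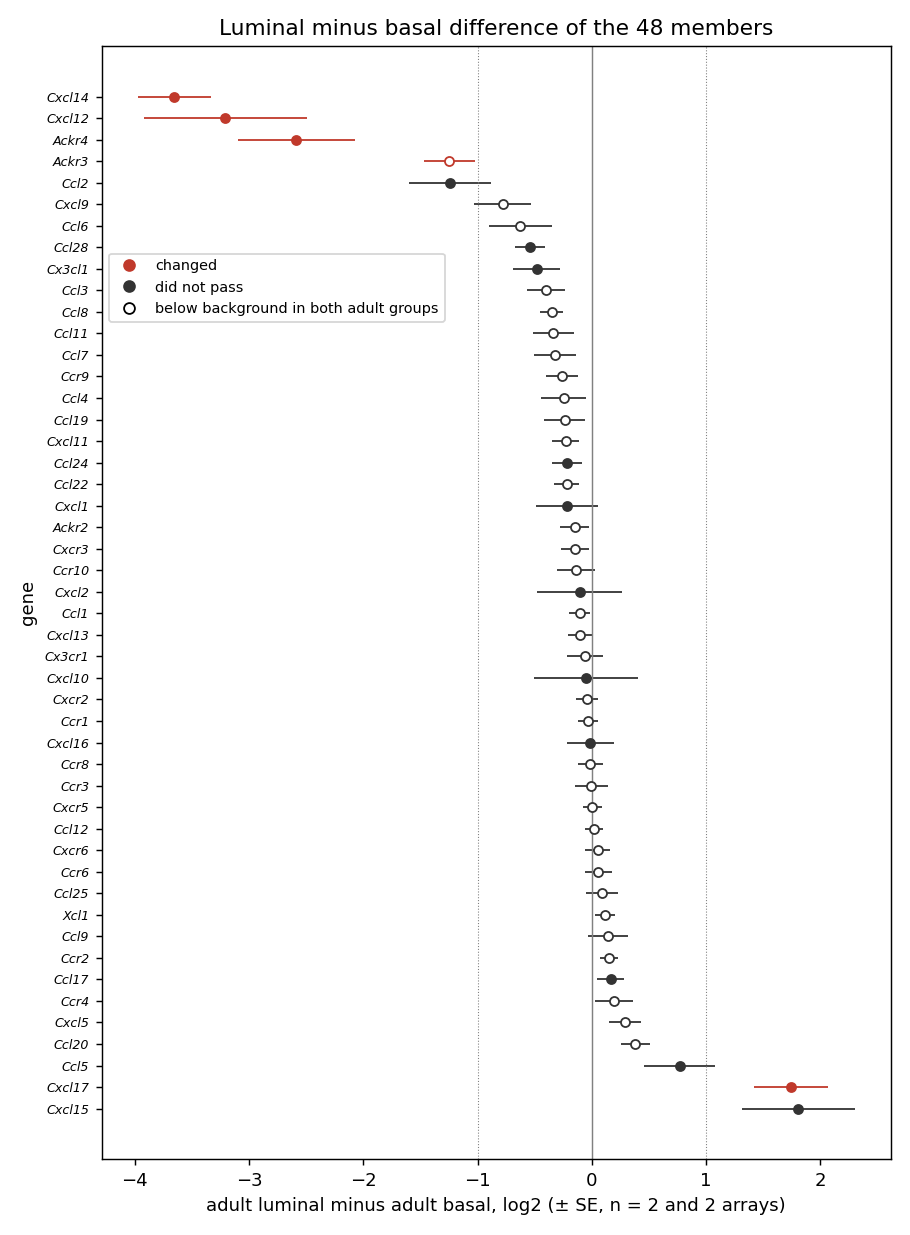
Luminal minus basal difference on the log2 scale of the 48 members with its SE (n = 2 and 2 arrays). Changed members are red, open points are below background in both adult groups, and dotted lines mark 2-fold. Of the 5 changed members Cxcl14, Cxcl12, Ackr4 and Ackr3 lie to the left and Cxcl17 to the right, and 37 members lie within 0.5 of 0.

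Among the CC ligands within the symbol rule none changed, and 5 of 18 lay above background in an adult group. Ccl2, the main attractant of monocytes, had 5.12 and 5.82 in luminal cells and 6.72 and 6.72 in basal cells. The groups did not overlap, and luminal minus basal came to -1.24 ± 0.36, short of the threshold (limma adjusted p = 0.0698). The luminal mean of 5.47 was below background, with 1 of the 2 luminal arrays above it, so this size is not exact either. With the adult arrays alone Ccl2 passed (adjusted p = 0.0233), and with them alone 7 members passed in place of 5. Ccl7, the gene next to Ccl2, and Ccl11, which follows Ccl7, lay below background.

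Ccl28, a chemokine of mucosal and glandular epithelia, had 5.74 and 5.93 in luminal and 6.43 and 6.32 in basal cells. Its adjusted p of 0.0472 in limma was under the threshold, but the difference of -0.54 ± 0.13 was 1.46-fold and so missed the fold minimum. The other 2 Ccl28 probe sets, both below background, gave 0.15 and -0.01. Ccl5, a T cell attractant, had 7.19 and 6.41 in luminal and 5.79 and 6.27 in basal cells, and it missed the threshold at 0.77 ± 0.31 (limma adjusted p = 0.151). Ccl17 (5.94 and 5.77 as luminal and basal means) and Ccl24 (5.63 and 5.86) stood close to the background level in both groups. The other 13 CC ligands had adult means below background, namely the macrophage inflammatory proteins Ccl3 and Ccl4, the eosinophil attractant Ccl11, the monocyte attractants Ccl7, Ccl8 and Ccl12, the lymphoid chemokine Ccl19, the gut and thymus chemokine Ccl25, and Ccl1, Ccl6, Ccl9, Ccl20 and Ccl22. Xcl1, of the XC class, was below background too.

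**Figure D4:**
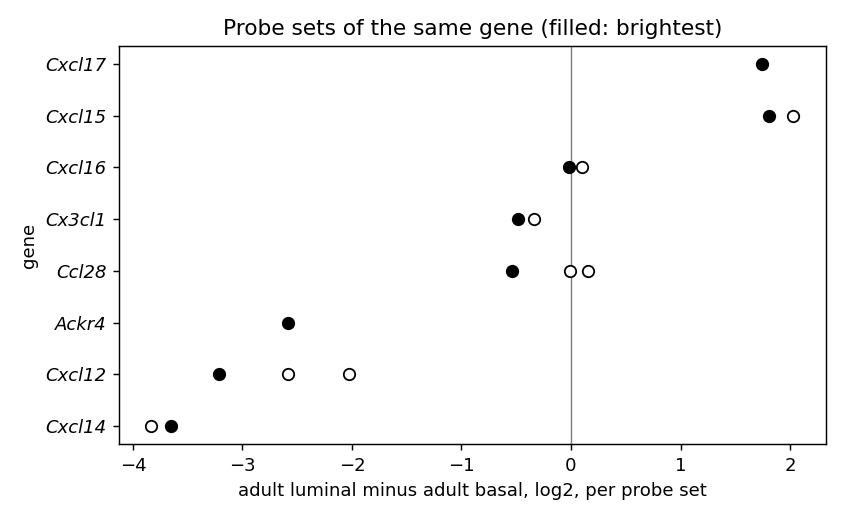
Luminal minus basal difference on the log2 scale for each probe set annotated to 1 symbol, for 8 genes, the brightest of these filled. Brighter probe sets annotated to both Ackr4 and Acad11 (-0.89 and -0.85) are not drawn. The 3 Cxcl12 probe sets (-3.21, -2.59 and -2.03), the 2 of Cxcl14 (-3.65 and -3.83) and the 2 of Cxcl15 (1.81 and 2.03) lie on 1 side of 0 for each gene, while those of Ccl28 and Cxcl16 lie on both sides.

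Of the 16 receptors, Ackr4 alone lay above background, in basal cells. Ackr4, an atypical receptor that takes up Ccl19, Ccl21 and Ccl25, had 4.28 and 4.75 in luminal cells, against 6.71 and 7.49 in basal cells. Both luminal arrays were below background and both basal arrays above it. The fit called Ackr4 lower in luminal cells (limma adjusted p = 0.0295). Its basal mean of 7.10 lay 2.6-fold above the background level, used here in place of the luminal mean of 4.51. That fold leaves out the spread between arrays. Ackr4 had a 95% interval of -3.83 to -1.34 for luminal minus basal on the log2 scale. It did not pass without luminal replicate 1 (0.177), luminal replicate 2 (0.117), basal replicate 1 (0.100) or basal replicate 2 (0.120). A further 2 probe sets are annotated to both Ackr4 and its neighbour Acad11, and they gave -0.89 and -0.85. Of the ligands Ackr4 takes up, Ccl19 and Ccl25 were below background in both groups. Ccl21b, a Ccl21 gene outside the symbol rule, was above background, at 5.86 in luminal and 6.14 in basal cells, and did not pass (-0.28 ± 0.23, limma adjusted p = 0.462). Near-identical copies of Ccl21 may share its probe set.

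Ackr3, an atypical receptor of Cxcl12 and Cxcl11, had 3.92 and 3.82 in luminal cells and 4.86 and 5.38 in basal cells. The groups did not overlap and the fit called it lower in luminal cells (limma adjusted p = 0.0241), but all 4 arrays were below background, so no fold is given. It did not pass when any 1 adult array was left out (adjusted p from 0.0600 to 0.135). Ackr2, the CXC receptors Cxcr2, Cxcr3, Cxcr5 and Cxcr6, the fractalkine receptor Cx3cr1 and the 8 CC receptors (Ccr1, Ccr2, Ccr3, Ccr4, Ccr6, Ccr8, Ccr9 and Ccr10) did not pass and lay below background in every group. These receptors are known chiefly from leukocytes. Of 21 leukocyte markers 6 lay above background in an adult group, with summed intensities of 895 and 961 in luminal and 1000 and 1127 in basal arrays. Ptprc, the CD45 gene that defines leukocytes, stood at 2.96 and 3.04, below background. The macrophage genes Cd68 (7.06 and 7.55) and Lyz2 (5.08 and 6.68) were above it in at least 1 group, and neither passed. S100a8 was the 1 leukocyte marker that changed, with both means (5.36 in luminal and 4.31 in basal cells) below background.

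Genes around the chemokine pathway mostly did not pass, as over all genes, of which 5.49% changed. Of 27 genes of receptor signalling, 2 were higher (2.87% of all genes) and 2 lower (2.63%) in luminal cells, with a median of -0.02. Pik3cg, a kinase that Gβγ subunits activate (1.09 ± 0.09, limma adjusted p = 0.00534), and Prex1, a Rac activator downstream of Gβγ (1.19 ± 0.17, adjusted p = 0.0160), were higher. Basal means of both were below background (4.71 and 4.60), and their luminal means just above it (5.80 and 5.79). All 3 embryonic columns held 5.18 for Pik3cg, so its SE and limma adjusted p rest partly on identical values. Gnai1, an inhibitory G protein subunit (-1.82 ± 0.33, adjusted p = 0.0240), and the regulator gene Rgs2 (-1.12 ± 0.22, adjusted p = 0.0298) were lower. Prex1 (5.14 in embryonic replicates 2 and 3) and Rgs2 (9.32 in embryonic replicates 1 and 2) held equal embryonic values as well. Gnai2 (-0.04) and Gnai3 (0.21) did not pass.

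Of 15 genes for chemokine processing and presentation, 2 were lower in luminal cells (2.63% of all genes) and none higher (2.87%), with a median of -0.17. Mmp2, a gelatinase that can cleave Cxcl12, had a difference of -3.52 ± 0.44 (limma adjusted p = 0.0118). The fibroblast, endothelial and basal marker lists also had negative medians (-1.07, -1.27 and -2.77). Which cells the Mmp2 RNA came from was not tested. Ext1, which builds the heparan sulphate that holds chemokines at the cell surface, had -1.11 ± 0.21 (adjusted p = 0.0257). Dpp4, a protease that trims chemokines, was below background (4.37 and 4.54) and did not pass.

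Of 23 NF-kB and inflammatory inducer genes, Il6 was called lower in luminal cells, with both means below background (3.46 and 4.60). Nfkb2 (0.01) and Rel (-0.00072) did not pass, and the median was 0.14. Of 17 chemokine relatives outside the symbol rule, Cmtm8, of a family of chemokine-like membrane proteins, was higher in luminal cells (1.69 ± 0.14, limma adjusted p = 0.00534). Its embryonic columns all held 7.62, so this SE and adjusted p rest partly on identical values. Cmklr1, the receptor of chemerin, was called lower (-1.08 ± 0.23, adjusted p = 0.0352), with a luminal mean below and a basal mean just above background (4.73 and 5.81). The platelet chemokines Pf4 (-0.68) and Ppbp (-0.16) did not pass and were below background. Ccl27a, a CC chemokine, was above background, at 7.19 in luminal and 8.23 in basal cells. It did not pass (-1.05 ± 0.40, limma adjusted p = 0.132).

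In the embryonic columns 14 members lay above background, but those levels sat close to the adult mean for most probe sets. Over probe sets the embryonic minus adult mean had an SD of 0.09, beside 0.49 for luminal minus basal. Over the 48 members these SDs were 0.21 and 0.92, and the embryonic mean lay between the luminal and basal means in 43 members and in 89.3% of all genes. Embryonic replicates 1 and 2 held the same value for 19 of the 48 members and for 37.6% of all probe sets. Between the arrays of an adult group this happened in no member, and in 0.12% (luminal) and 0.21% (basal) of probe sets. The embryonic levels therefore describe the table and are not read as traits of embryonic cells.

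No member changed between embryonic and adult basal columns (0.0702% of all genes) or between embryonic and adult luminal columns (0.0234%). In limma 6 of the 48 members had an unadjusted p under 0.05 against basal cells, beside 1581 of the 17096 genes, and 4 against luminal cells, beside 2060. Both comparisons use the same embryonic arrays. Cxcl14 stood at 9.74, 10.05 and 9.68 in embryonic columns, all above both luminal and below both basal arrays. Its differences of -2.12 ± 0.29 from basal and 1.53 ± 0.29 from luminal cells did not pass (limma adjusted p = 0.125 and 0.159).

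Cxcl12 had 5.40, 5.82 and 7.54 in embryonic columns. Replicate 3, the array of 813 cells, was the high one in this probe set and in a second one (5.03, 5.16 and 6.51), but the low one in the third (6.10, 6.15 and 4.94). The difference from basal cells was -2.58 ± 0.65 (limma adjusted p = 0.304), and without replicate 3 it was -3.22 in the brightest probe set and passed (adjusted p = 0.0360). Ackr4 had 5.84, 5.35 and 4.32 in the same arrays, with replicate 3 the low one, and Cxcl17 had 6.09, 6.09 and 5.27. Cxcl10 ranged from 5.48 to 6.81 over the embryonic arrays, more than over the 4 adult arrays.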

How the data were processed

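RNA of the sorted embryonic cells was reverse transcribed and amplified (WTA chemistry), then labelled for Affymetrix arrays, per the labels' protocols. The authors deposited probe set intensity on a linear scale, 1 column per array. The submitters' processing notes name RMA and affy; their versions and order, and whether embryonic and adult arrays were normalized together, the sources used here do not give. The same protocol text, on embryos, stands with the adult samples, so adult preparation is not described.

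Log2 of the deposited intensity was taken, where the design had left the scale open. The table has 45141 rows, from which 104 control probe sets and 4 empty rows were dropped. The platform annotation gave 1 symbol for 28895 probe sets, several for 551 and none for 15587. The probe set with the highest mean stood for each of 17096 genes, and 16 members had several. The background level was the 95th percentile over 157 probe sets of 121 organ-restricted genes, a list written for this work with the table at hand but before the values of its genes were read. Another such list, used earlier on these data, gave a lower level, and above-background counts and folds over background depend on the level chosen. Limma 3.58.1 in R 4.3.3 fitted 3 group means over all 7 arrays with eBayes (4 residual and 2.29 prior degrees of freedom). The fit was tested on simulated data. All 48 members matched the RefSeq gene table by symbol, and 36 had a promoter window. Members named with values were those that changed or differed 2-fold above background, then the others above background. For other lists they were up to 4 changed genes per direction and the first 2 that did not pass; further list members and markers were named after their values were seen. Members and lists were chosen with earlier results of these data known. Replicate numbers were not treated as pairs: replicate 2 minus 1 correlated across genes at 0.08 between luminal and basal arrays. Other settings varied the choice of probe set, the filter on dim genes, normalization, an offset of 32, the variance prior, arrays in the fit, a replicate block, averaged embryonic replicates, fold minimums, background levels and each replicate left out. Figures were drawn with matplotlib 3.10.9.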

Additional observations from a re-analysis of the deposited data

How the results depend on the processing

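The 5 members that changed between luminal and basal cells numbered 4 to 7 under the settings that kept all 4 adult arrays, and 1 (Cxcl14) without any 1 adult array, so their range over arrays left out was 1 to 7. Each fit without an adult array had 1 array in a group, assumed to vary like the others. Over all genes the 939 changed genes became 1839 at a 1.5-fold minimum, 2223 with no fold minimum and 446 on log2(intensity + 32), and 60 to 1178 with 1 array left out. Differences of the 7 members followed (Cxcl14, Cxcl12, Ackr4, Ackr3, Cxcl17, Cxcl15 and Ccl2) kept their direction in all settings run, though Ackr3 was not tested where only genes above background were kept. Ackr3 fell under the fold minimum on log2(intensity + 32), at -0.52. What moves these counts was not tested. Against adult basal cells 0 members changed, and 1 did with the mean of all probe sets (Cxcl14), with only genes above background (Cxcl14), with the replicate block (Cxcl12) and without embryonic replicate 3 (Cxcl12), a range of 0 to 1 with 1 array left out. Against adult luminal cells 0 changed under all settings run. With the 99th percentile as background (7.28), 4 embryonic, 5 luminal and 6 basal members lay above it, in place of 14, 11 and 14. With the 90th percentile (5.49) 15, 13 and 16 did.

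With the replicate block, 7 members changed between luminal and basal cells (Cxcl15 and Ccl2 in addition) and 1199 genes in all. The numbers alone do not pair the arrays, and replicate 2 minus 1 correlated at -0.08 between embryonic and each adult group. Levels near background limit the size of a difference, and most receptors lay there.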
